A study of Mus musculus with 8 samples.

Results

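The genes described here are 36 genes of mitosis, which encode parts of the spindle, the kinetochore, the spindle checkpoint and the machinery of cytokinesis. They were chosen by name among the 17441 genes of the authors' deposited table, which compares Cbx2-/- with wild-type mouse embryonic fibroblasts, and all 36 were found in it. Cbx2 belongs to the polycomb proteins, which hold developmental genes in a repressed state, and binds modified histones through its chromodomain. The control group was wild type and came from littermates, and the other group carried a targeted deletion of Cbx2. Both groups were primary fibroblasts taken at embryonic day 18 and grown to passage 2, with no treatment named in the labels. RNA was sequenced from 2 libraries per genotype, each from 200000 cells and about 4.62 Gb of sequence, and 4 ATAC-seq libraries are not analysed here. No label ties each library to an embryo of its own, so the p-values cover no more than the spread between these libraries, as DESeq2 estimated it.

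In a dividing cell, condensed chromosomes are attached through their kinetochores to the microtubules of the spindle, and the spindle checkpoint delays anaphase until every kinetochore is attached. The anaphase-promoting complex then marks securin and cyclin B for destruction, which frees separase to cut the cohesin that joins sister chromatids, and the central spindle directs the contractile ring that divides the cell. Transcripts of most of these genes accumulate in the G2 phase and in mitosis, so that in a bulk sample their level depends on how many cells are cycling. In such a sample fewer dividing cells and less RNA per dividing cell cannot be told apart.

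The authors' deposited table gives 1 normalised value per genotype, so no value per library and no SD can be shown. Each gene's values, fold change and adjusted p come from the authors' deposited table and its DESeq2 comparison, and a gene was called where the adjusted p over all 17441 genes was under 0.05. Standard errors (SE) and 95% intervals were implied from the deposited fold change and p. The values summed to 19428299 in wild type and 18910077 in knockout. The table called 750 genes lower and 607 higher, and with both columns rescaled to the same total the test gave 566 lower and 763 higher. The targeted gene was checked first: in the authors' deposited table Cbx2 stood at 347 in wild type against 29.0 in knockout (log2 fold change -3.58, SE 0.25, DESeq2 adjusted p 2.55e-44).

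The mitotic genes were expressed in both genotypes, and most had slightly lower values in knockout. Of these 36 genes 3 were called lower: Pttg1, which encodes securin, Mki67, which encodes the proliferation marker Ki-67, and Tpx2, a spindle assembly factor. No member was called higher by DESeq2, and none had a higher value at an unadjusted p under 0.05. The share called lower was 8.33%, against a background of 4.3% of all genes tested and 6.68% of the 6651 genes whose mean value lay within the range of these 36. For rises the background was 3.48% of all genes tested and 4.48% of those in the same range, and 7.78% of all genes were called in either direction. At an unadjusted p under 0.05, 6.74% of all genes were higher.

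Without any threshold, 34 of the 36 genes had a lower value in knockout. Of all genes 49.3% had a lower value, and of the genes in the same range of mean value 54.3%. With both columns rescaled to the same total, 32 of the 36 were lower. The median log2 fold change of the 36 genes was -0.10, with quartiles of -0.19 and -0.08, beside 0.0036 for all genes and -0.01 for genes of like mean value. The summed value of the 36 genes went from 54129 to 49307, a difference of -8.91%, while that of the whole table differed by -2.67%. At an unadjusted p under 0.05, 11 of the 36 were lower, against 7.87% of all genes and 12.3% of genes of like mean value. In 18 genes the value in knockout was less than 10% below that in wild type, in 15 it was 10 to 20% below, and in Ttk and Birc5 it was slightly above. Apart from Pttg1 each log2 fold change lay between -0.28 and 0.01.

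Marker genes of fibroblasts and of other cell types also differed between the genotypes. Of 12 fibroblast markers 8 fell and 1 rose, Thy1 (4928 to 11919), and their summed value went from 719064 to 649069. The largest part of that fall came from Col1a1 (264489 to 227630), which was not called (DESeq2 adjusted p 0.0653). Fn1 had 127667 and 143893 and was not called. Those called lower were Dcn (5774 to 2767), Lum (620 to 258), Pdgfra (2162 to 1416.5) and Pdgfrb (8891 to 6546). Col1a2 (130560 to 106979), Col3a1 (71346 to 54815), S100a4 (8340 to 6054) and Vim (94169 to 86705) were called lower too. Of 15 macrophage markers 9 rose and none fell (0 lower also at an unadjusted DESeq2 p under 0.05), and their summed value went from 669 to 1895. Lyz2 (148 to 947) carried most of that rise. Also called higher were Cd68 (68.7 to 190), Cd14 (124 to 237), Ctss (15.7 to 82.4) and Itgam (8.71 to 36.7). Adgre1 (7.54 to 23.3), Tyrobp (9.16 to 31.5), Fcer1g (10.4 to 31.7) and C1qc (4.69 to 14.8) were called higher as well, from low values. Csf1r, the highest of the 15 in wild type, had 245 and 257 and was not called. The defining marker Ptprc had low values of 5.55 and 15.5 and was not called (DESeq2 adjusted p 0.0640). Of 10 endothelial markers 9 were in the table, 2 rose and 1 fell, and their sum went from 713 to 1050.2. Those that rose were Cdh5 (61.6 to 324) and Esam (35.6 to 290.2) and the one that fell was Flt1 (540 to 369), while the defining marker Pecam1 had 2.02 and 1.98. Of 8 epithelial markers 2 fell, the keratin genes Krt8 (98.0 to 7.48) and Krt18 (260.4 to 75.6), and none rose (0 higher also at an unadjusted DESeq2 p under 0.05). Their sum went from 559 to 272, with the defining markers Epcam at 1.99 and 1.97 and Cdh1 at 1.86 and 2.08. Of 8 skeletal muscle markers 5 were in the table and 1 fell, the desmin gene Des (2053 to 990.3), which carried most of a sum that went from 2064 to 1004, with Myod1 at 0.559 and 0.472. Apart from the defining markers, the markers named here were picked after their values were seen. The part of these shifts in the values of the mitotic genes was not tested.

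**Figure D1:**
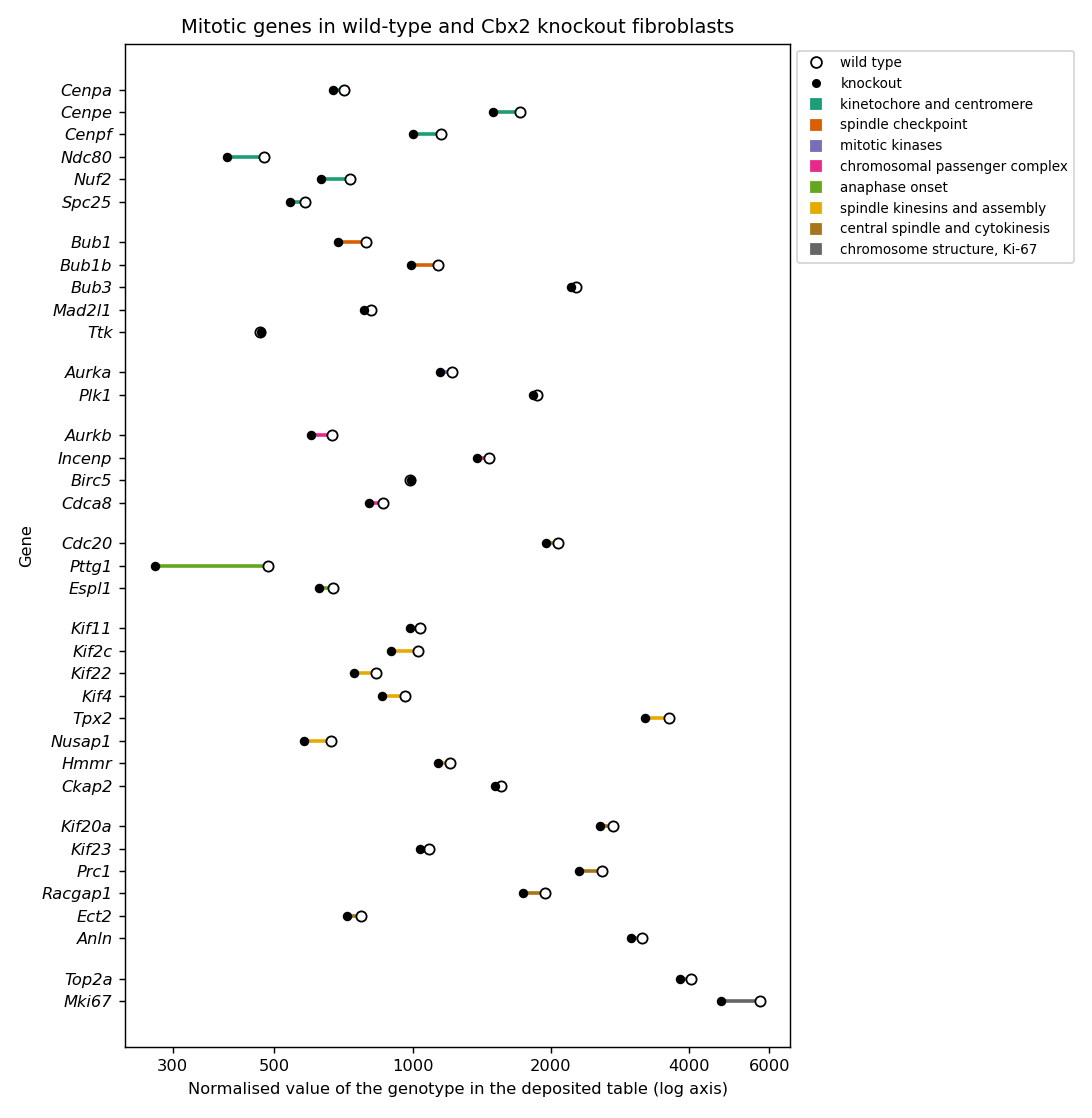
Normalised value of each of the 36 mitotic genes in wild type (open circle) and Cbx2 knockout (filled circle) in the authors' deposited table, on a log axis, with genes grouped and coloured by role. Values ran from 465 to 5727 in wild type and from 275 to 4709 in knockout, and the long segment is that of Pttg1.

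The intervals show how closely these libraries fix each difference. The implied SE corresponds to a coefficient of variation per library from 3.22% for Mki67 to 9.79% for Pttg1. Genes of like value had nearly the same SE: it was 0.0855 for Cenpf, 0.0856 for Bub1b and 0.0855 for Kif23. The SE therefore cannot be read as the spread observed for each gene on its own. In all 36 genes the 95% interval lay below a rise of 20%. In 22 genes it also lay above a fall of 20%, so that for those genes a larger loss fell outside the interval. These intervals hold only if the spread between the libraries stands for that between cultures.

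**Figure D2:**
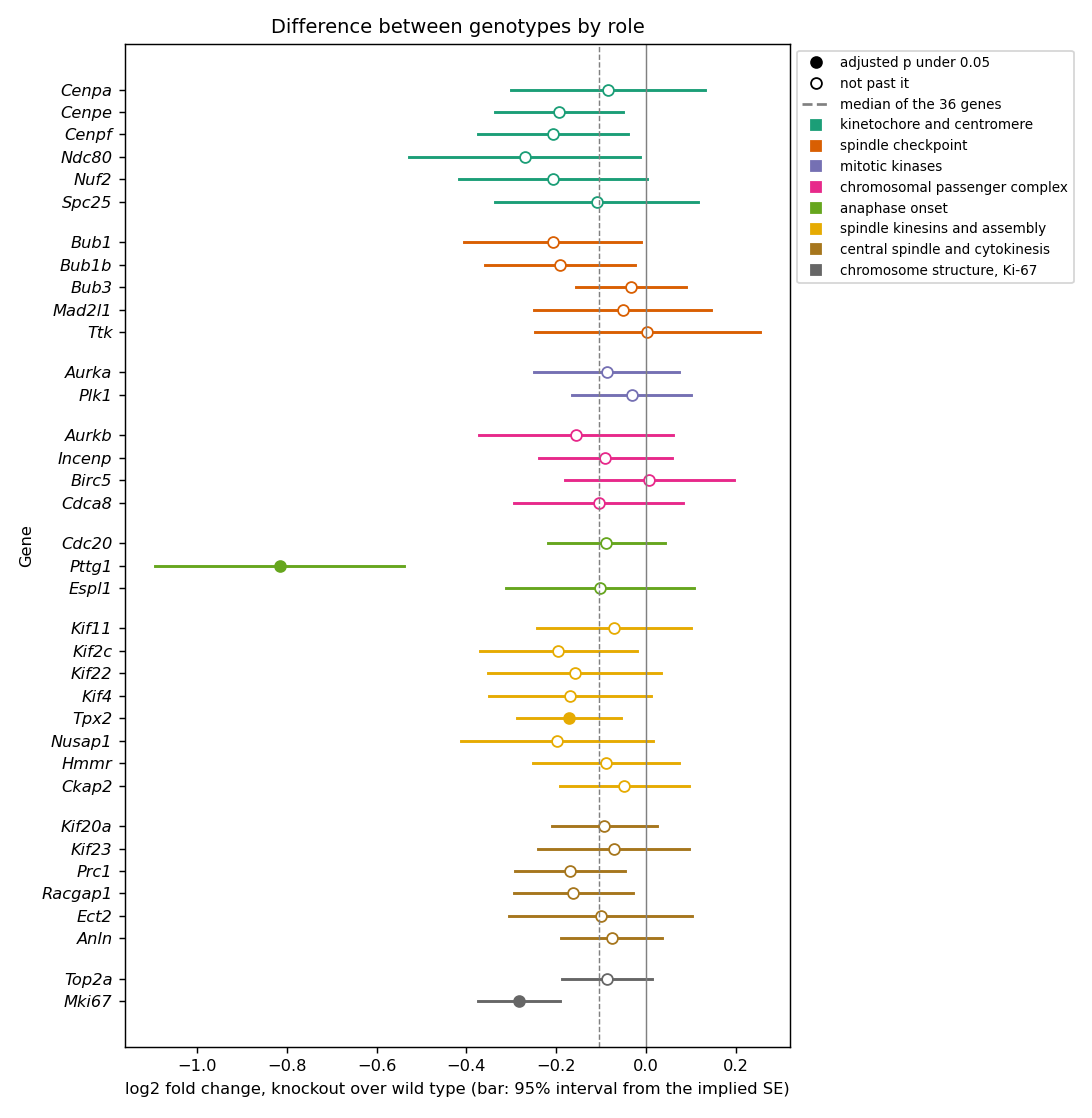
Log2 fold change of each of the 36 genes, knockout over wild type, with the 95% interval from the implied SE as a bar and colours by role; filled points passed an adjusted p of 0.05. The 3 filled points are Pttg1 at -0.82, Mki67 at -0.28 and Tpx2 at -0.17, and the dashed line is the median of -0.10.

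The largest difference lay in the step that starts anaphase. Pttg1 encodes securin, the inhibitor that holds separase until the anaphase-promoting complex destroys it. Pttg1 lies on chromosome 11 from 43420244 to 43427463 (mm10, RefSeq annotation). In the authors' deposited table its value was 484 in wild type against 275 in knockout, which is a log2 fold change of -0.82 with an implied SE of 0.14 (DESeq2 adjusted p 3.53e-07). It fell by 43.2%, with an interval from -53.1% to -31.2%. Its partner Espl1, which encodes separase, had 672 in wild type and 626 in knockout (log2 fold change -0.10, DESeq2 adjusted p 0.914). Cdc20, the activator of the anaphase-promoting complex that targets securin, had 2079 and 1956 (log2 fold change -0.09, DESeq2 adjusted p 0.720). Of these 3 genes only Pttg1 was called. No test of the difference between these genes was made.

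Compared per length of transcript, Pttg1 also changed its place among the 36 genes. Its value per kilobase was 634 in wild type, the 11th highest of the 36, and 360 in knockout, the 19th highest. No other member moved by more than 3 places in this order. Cdc20 had the highest value per kilobase in both genotypes, at 1160 in wild type and 1091 in knockout. The lowest per kilobase was Espl1 in wild type, at 101, and Cenpf in knockout, at 89.9. Gene lengths were those of the deposited table.

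Of the genes of chromosome structure, Mki67 fell and Top2a was not called. Ki-67 coats mitotic chromosomes and marks cycling cells, and its gene had the highest value of the 36 before division by length. Per kilobase it ranked 14th in both genotypes. Mki67, on chromosome 7 from 135689784 to 135716450, had 5727 in wild type against 4709 in knockout (authors' deposited table; log2 fold change -0.28, SE 0.05, DESeq2 adjusted p 6.59e-08). It fell by 17.8%, with an interval from -22.8% to -12.4%. Top2a, the topoisomerase that untangles sister chromatids, had 4056 and 3822 (log2 fold change -0.09, interval -0.19 to 0.01, DESeq2 adjusted p 0.501). Whether the 2 genes differed in their change was not tested.

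Among spindle genes, Tpx2 fell and the kinesins did not pass the threshold. Tpx2 activates Aurora A and nucleates microtubules near chromosomes. Located on chromosome 2 from 152847964 to 152895321, it had 3616 in wild type against 3210.0 in knockout (authors' deposited table; log2 fold change -0.17, SE 0.06, DESeq2 adjusted p 0.0478). This call sat at the edge of the threshold: it was lost with the columns rescaled to the same total (adjusted p 0.206), with centring on the median of the upper genes (adjusted p 0.0753), with Benjamini-Yekutieli adjustment (adjusted p 0.494) and with a 5% coefficient of variation added per library (adjusted p 0.552), and it was the same with adjustment over the upper genes alone (adjusted p 0.0316). With 10% added the call of Mki67 was lost as well (adjusted p 0.847) and that of Pttg1 held (adjusted p 0.00347), and with 20% added that of Pttg1 was lost too (adjusted p 0.560).

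The other spindle genes had differences of the same sign. Kif11, the kinesin that pushes spindle poles apart, had 1037 and 988 in wild type and knockout. Kif2c, which removes tubulin from microtubule ends, had 1026 and 896, with an interval of the log2 fold change from -0.37 to -0.02 and a DESeq2 adjusted p of 0.240. Kif22, a chromosome-arm motor, had 831 and 744. Kif4, a motor of chromosome arms and the central spindle, had 964 and 857 (log2 fold change -0.17, about that of Tpx2, with an SE of 0.09). Since its SE was larger, Kif4 did not pass where Tpx2 did. Nusap1, which bundles microtubules, had 664 and 579, Hmmr, a spindle pole protein, had 1206 and 1134, and Ckap2, another microtubule-associated protein, had 1561 and 1510.0. All 8 spindle genes had a lower value in knockout, with a median log2 fold change of -0.16 and 1 of them called.

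The kinetochore genes had the lowest median of the role groups with more than 3 genes, at -0.20, yet none of the 6 was called, and 3 had an unadjusted p under 0.05. Cenpa, the centromeric histone H3 variant, had 709 in wild type and 669 in knockout. Cenpe, the kinesin that links kinetochores to microtubule ends, had 1712 and 1499 (log2 fold change -0.19, interval -0.34 to -0.05, DESeq2 adjusted p 0.0899). Cenpf, a large protein of the outer kinetochore, had 1154 and 1000.1 (log2 fold change -0.21, DESeq2 adjusted p 0.151). The remaining 3 belong to the Ndc80 complex, the main microtubule receptor of the kinetochore. Ndc80 had 475 and 394, with the largest uncalled difference of the 36 genes (log2 fold change -0.27, SE 0.13, DESeq2 adjusted p 0.289). Nuf2 had 729 and 632 (log2 fold change -0.21), and Spc25 had 583 and 541 (-0.11). All 3 had lower values in knockout, and the intervals of Nuf2 and Spc25 included 0.

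The 5 spindle checkpoint genes were divided between differences near -0.2 and near 0, and none was called. Bub1, a kinase that recruits checkpoint proteins to kinetochores, had 793 in wild type and 687 in knockout (log2 fold change -0.21, interval -0.41 to -0.01, DESeq2 adjusted p 0.288). Bub1b, which encodes BubR1 of the mitotic checkpoint complex, had 1134 and 993 (log2 fold change -0.19, DESeq2 adjusted p 0.212). Bub3, which binds both of them, had 2268 and 2217, with an interval of the log2 fold change from -0.16 to 0.09. Mad2l1, which encodes the Cdc20 inhibitor Mad2, had 812 and 784 (interval -0.25 to 0.14). Ttk, the Mps1 kinase that starts checkpoint signalling, had 465 and 466 (interval -0.25 to 0.25). Whether Bub1 and Bub1b differed from the other 3 was not tested.

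No mitotic kinase and no gene of the passenger complex was called, and the complex had a median log2 fold change of -0.10, as had all 36 genes. Plk1, the polo kinase of mitotic entry and spindle assembly, had 1872 in wild type and 1832 in knockout, a log2 fold change of -0.03 with an interval from -0.16 to 0.10. Aurka, the Aurora A kinase of spindle poles, had 1219 and 1147 (log2 fold change -0.09, interval -0.25 to 0.07). With the columns rescaled to the same total, Plk1 and Bub3 had log2 fold changes of 0.0079 and 0.0061, so their direction depends on the scaling. In the chromosomal passenger complex, which corrects attachments and later moves to the midzone, the kinase gene Aurkb had 668 and 600.0 (log2 fold change -0.15, interval -0.37 to 0.06). The scaffold gene Incenp had 1470 and 1380.4 (-0.09, interval -0.24 to 0.06). Cdca8, which encodes borealin, had 863 and 802 (-0.11, interval -0.29 to 0.08), and Birc5, which encodes survivin, had 985 and 990.4 (interval -0.18 to 0.20). None of these 6 genes was called by DESeq2 or had an unadjusted p under 0.05.

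The 6 genes of the central spindle and cytokinesis all had lower values in knockout, and none was called. Prc1, which bundles the antiparallel microtubules of the midzone, had 2594 in wild type and 2309 in knockout (log2 fold change -0.17, interval -0.29 to -0.05, DESeq2 adjusted p 0.0799). Racgap1 and Kif23 form the centralspindlin complex. Racgap1 had 1949 and 1743 (log2 fold change -0.16, interval -0.29 to -0.03, DESeq2 adjusted p 0.165), and Kif23 had 1089 and 1036 (-0.07, interval -0.24 to 0.10). Ect2, the exchange factor that activates RhoA at the cell equator, had 773 and 721. Anln, the ring scaffold anillin, had 3159 and 2997, and Kif20a, a midzone kinesin, had 2730 and 2561. For Anln and Kif20a the lower bounds of the interval were -12.3% and -13.5%.

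**Figure D3:**
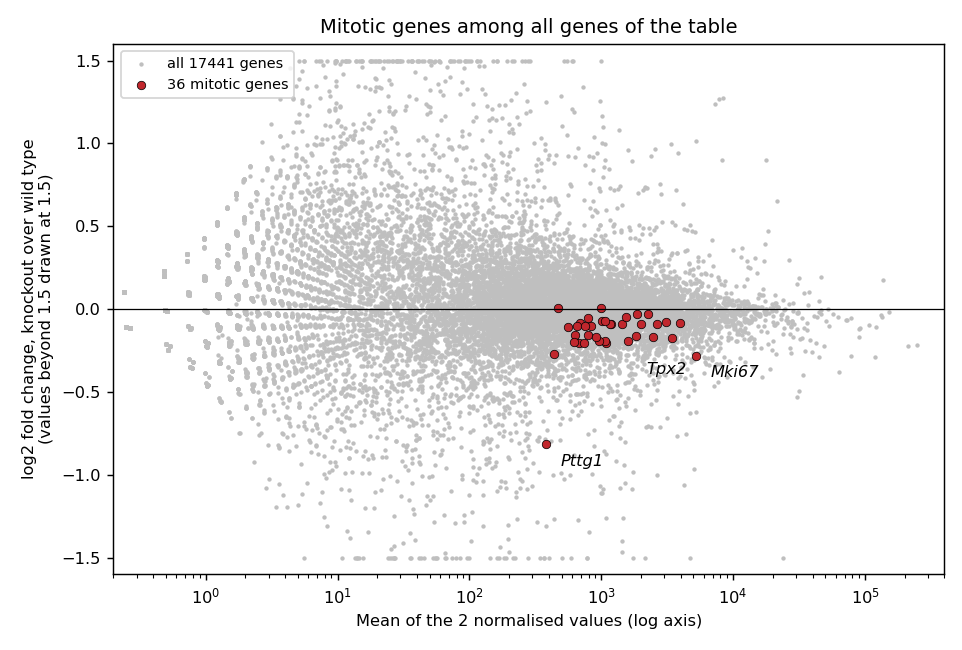
Log2 fold change, knockout over wild type, against the mean of the 2 normalised values (log axis) for all 17441 genes of the table in grey and the 36 mitotic genes in red; fold changes beyond 1.5 are drawn at 1.5. The red points form a narrow band just below 0, with Pttg1 at -0.82 below the band and the other called genes, Mki67 and Tpx2, at its right end.

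In all, 7 members share part of their gene span with another gene of the table, so reads there may be divided between them, and the strand used in counting is not given in the sources used here. They are Aurka, Cdc20, Nusap1, Kif20a, Prc1, Ect2 and Anln. None of their overlapping partners was called, and none of the 3 genes that fell is among them. Over the other 29 members the median log2 fold change was -0.11, with the same 3 calls.

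The rest of the mitotic machinery was covered by 7 further lists with 161 genes, all of which were in the table. Of these, 7 genes were called lower (4.35%) and 1 higher, near the background of 4.3% for falls. Without a threshold 109 (67.7%) had a lower value in knockout, against 49.3% of all genes. With an unadjusted DESeq2 p under 0.05, 20 of the 161 were lower and 4 higher, where 7.87% of all genes were lower and 6.74% higher. The median log2 fold change of the 161 genes was -0.07. Of 40 other kinetochore genes and 21 centrosome and centriole genes none was called by DESeq2, with 2 and 0 lower and 0 and 0 higher at an unadjusted p under 0.05. The kinetochore list had a median of -0.07 and the centrosome list one of -0.07.

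Among the 14 genes of mitotic entry 2 fell. Ccna2, the cyclin of S and G2 phase, went from 2455 to 2065 (log2 fold change -0.25, DESeq2 adjusted p 0.00152), and Haspin, the kinase that phosphorylates histone H3 at centromeres, went from 228 to 134 (-0.77, SE 0.20, DESeq2 adjusted p 0.00207) per the authors' deposited table, where Haspin is listed as Gsg2. Haspin thus fell by about as much as Pttg1, though from a lower value; the difference between them was not tested. Of 18 genes of the anaphase-promoting complex 1 fell, the scaffold gene Anapc1 (log2 fold change -0.16, DESeq2 adjusted p 0.0454). Of 33 other spindle genes 1 fell, the microtubule stabiliser gene Clasp1 (log2 fold change -0.27, DESeq2 adjusted p 3.78e-04). Of the same 33 genes, 9 were lower and 2 higher at an unadjusted DESeq2 p under 0.05. The medians were -0.10 for mitotic entry, -0.06 for the anaphase-promoting complex and -0.10 for the other spindle genes.

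Cytokinesis and abscission genes outside the 36 had a median near 0, at -0.0032, with 1 rise and 1 fall among 22. Diaph3, a formin that builds actin filaments, rose from 845 to 1043 (log2 fold change 0.30, DESeq2 adjusted p 0.0134), and Myh10, a nonmuscle myosin heavy chain, went from 7142 to 6449 (-0.15, DESeq2 adjusted p 0.0204) in the authors' deposited table. Many of these 22 genes also serve cells that are not dividing. Of 13 genes of the DREAM, MuvB and FoxM1 complexes, which control transcription of mitotic genes, 2 fell. These were Mybl2, which encodes B-Myb (537 to 403, log2 fold change -0.41, DESeq2 adjusted p 0.0186), and Tfdp1, a partner of E2F factors (2819 to 2480.0, -0.18, DESeq2 adjusted p 0.0322). The median of that list was -0.07.

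**Figure D4:**
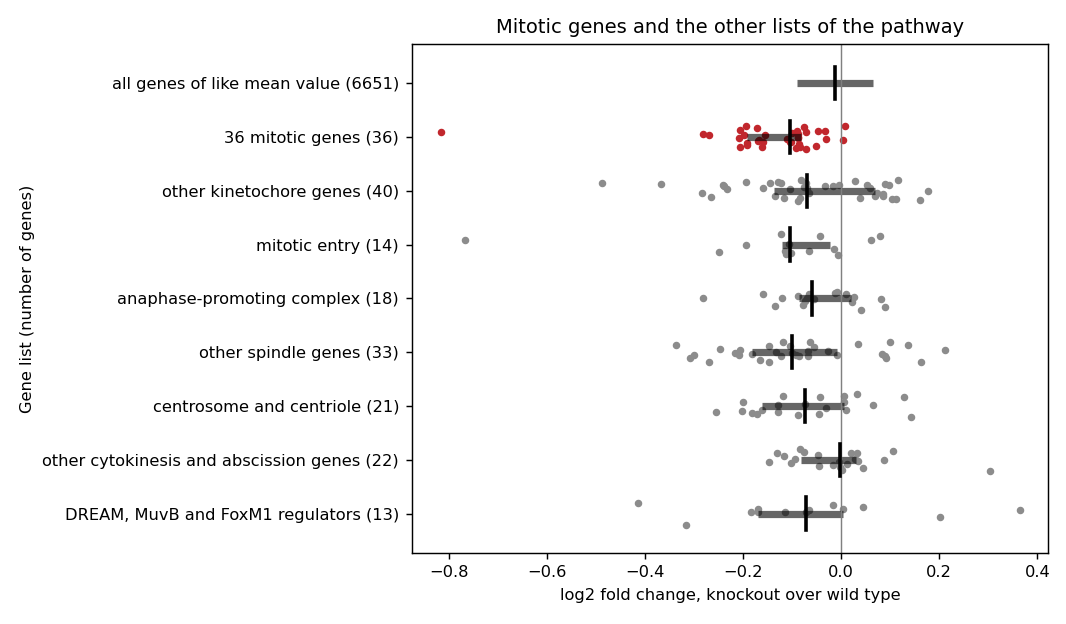
Log2 fold change, knockout over wild type, of the 36 mitotic genes (red) and of the other lists of the pathway (grey), 1 point per gene with the number of genes in brackets; black bars span the quartiles and ticks mark the medians, also for 6651 genes of like mean value. The median is -0.10 for the 36 genes and between -0.10 and -0.0032 for the other lists, beside -0.01 for genes of like mean value.

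The promoters of these genes carry letters in common that the choice by name did not use. Genes of the G2 phase and mitosis are known for a CHR (cell cycle genes homology region), which is bound by MuvB complexes, and for CCAAT boxes, which are bound by NF-Y. Promoter windows from 250 bases before to 50 bases after the gene start were taken from RefSeq (GRCm38.p6), using the first start listed, and held 32 of the 36 genes. Aurkb, Incenp, Tpx2 and Kif20a were missing. TTTGAA and TTCGAA were searched as CHR, CCAAT as CCAAT box and TTTCCCGC, TTTCGCGC, TTTGCCGC and TTTGGCGC as E2F sites, on both strands, and a base could count in more than 1 match.

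A CHR match was found in 26 of the 32 windows (81.2%), against 14.7% of the windows of 13621 genes of the table and 19.4% of all 27025 genes with a window. CCAAT was found in 24 of the 32, against 38.4% of the table and 37.9% of all. Both were present in 23 windows (71.9%), against 6.21% of the table and 7.70% of all. None held an E2F site as spelled here, against 3.69% of the table and 2.32% of all. A match is a description of the letters and not evidence of binding.

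To show this arrangement, the 200 bases before the start are given for 4 members, 5′ to 3′ on the gene's own strand, with CHR and CCAAT matches in capitals. Mki67 (chr7:135716380-135716579, minus strand) fell, and its listed start lies 71 bases inside the annotated gene. Top2a (chr11:99024190-99024389, minus strand) has many matches and was not called. Cdc20 (chr4:118437344-118437543, minus strand) and Espl1 (chr15:102296093-102296292, plus strand) act with securin at anaphase.
Mki67: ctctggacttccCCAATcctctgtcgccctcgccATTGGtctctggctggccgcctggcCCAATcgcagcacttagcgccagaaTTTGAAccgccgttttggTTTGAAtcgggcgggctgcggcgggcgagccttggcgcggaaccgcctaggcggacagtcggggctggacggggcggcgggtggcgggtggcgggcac
Top2a: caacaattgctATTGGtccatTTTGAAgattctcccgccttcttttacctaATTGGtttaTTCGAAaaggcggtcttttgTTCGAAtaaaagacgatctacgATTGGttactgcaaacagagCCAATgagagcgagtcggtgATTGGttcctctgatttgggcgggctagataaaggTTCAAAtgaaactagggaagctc
Cdc20: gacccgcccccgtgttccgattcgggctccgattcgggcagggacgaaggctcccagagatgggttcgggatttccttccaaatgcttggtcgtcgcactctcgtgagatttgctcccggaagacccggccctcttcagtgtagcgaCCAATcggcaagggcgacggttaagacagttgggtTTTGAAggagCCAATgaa
Espl1: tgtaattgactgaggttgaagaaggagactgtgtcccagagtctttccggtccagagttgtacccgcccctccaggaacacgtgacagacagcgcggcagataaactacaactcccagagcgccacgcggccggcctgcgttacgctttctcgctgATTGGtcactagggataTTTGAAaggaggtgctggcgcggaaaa
Counted back from -1 at the base before the start, the CHR matches of Mki67 begin at -116 and -98 and its CCAAT matches at -188, -166 and -141. In Espl1 a CCAAT match at -44 lies ahead of a CHR match at -27, and in Cdc20 CCAAT matches at -53 and -8 lie on either side of a CHR match at -18. Top2a has 4 CHR and 6 CCAAT matches in its whole window.

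The differences can be set beside these letters. The median log2 fold change was -0.10 for the 26 genes with a CHR match and -0.19 for the 6 without, which are Birc5, Cenpe, Mad2l1, Nuf2, Nusap1 and Pttg1. These medians are descriptions without a test. The window of Pttg1 held neither motif, but its listed start lies 1482 bases inside the annotated gene, so that the letters before its outermost start were not searched. Starts more than 100 bases inside the gene were also listed for Aurka (316 bases), Ect2 (375) and Kif2c (3852). Their CHR matches count among the 26, though they lie inside the annotated gene and the letters before the outermost starts were not searched either.

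**Figure D5:**
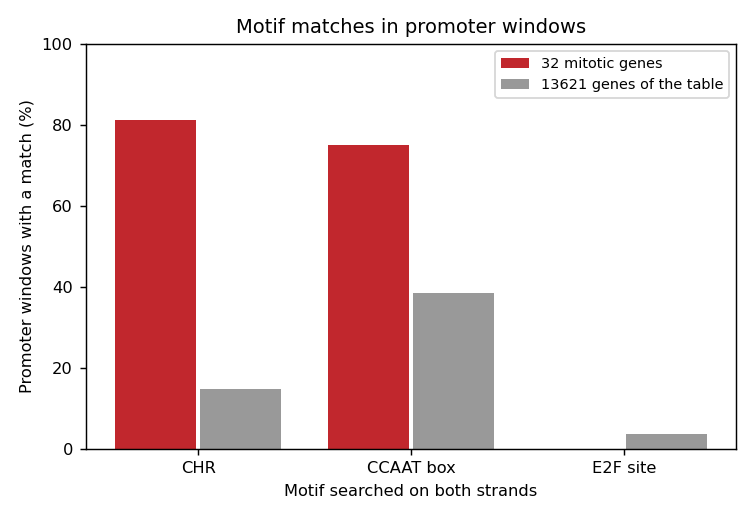
Share of promoter windows with at least 1 match to the CHR, CCAAT box and E2F motifs on either strand, in percent, for 32 of the mitotic genes (red) and 13621 genes of the table (grey). CHR matches stand at 81.2% against 14.7% and CCAAT matches in 24 of 32 windows against 38.4%, and no E2F match was found in the 32 windows.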

How the data were processed

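RNA of 2 wild-type and 2 Cbx2-/- libraries was compared, grouped by genotype in the titles. The submitters' processing notes name the build mm10 and the tools RSEM, Bowtie2, HISAT2 and DESeq2. Versions, filters and the role of each tool are not stated in these notes. The authors deposited 1 normalised read signal per genotype and gene, so no count per library was used and the depth per library is known only as 4.62 Gb, per the labels' protocols. The deposited log2 fold changes equal the log2 ratio of both columns to within 9.13e-09. The deposited p-value and adjusted p columns come from the authors' DESeq2 comparison, and the adjusted values equal a Benjamini-Hochberg adjustment over 17441 genes to within 1.33e-06.

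An SE was implied as the fold change divided by the normal quantile of the deposited p (Python 3.11.15, scipy 1.17.1). Simulated data checked the arithmetic of this step only, not whether the normal quantile fits the authors' test. Added spread, rescaling and centring were applied through this SE, with p-values adjusted over all genes. Gene lists were matched by symbol or by RefSeq synonym to gene identifiers: all 36 members and 161 other mitosis genes were found. The genes named are all members, up to 3 called genes of each other mitosis list with the smallest adjusted p, Cbx2 and defining markers of other cell types. Other genes, those of annotation terms and the neighbours of Pttg1 included, were picked with their values in view. The members and lists were chosen with earlier results of these data known.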

Additional observations from a re-analysis of the deposited data

How the results depend on the processing

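Of the 36 genes, 3 were called lower and 0 higher. The lower count was 0 with a log2 fold change of 1 required, 5 at an adjusted p under 0.10 (Cenpe and Prc1 added), 1 with a 10% coefficient of variation added per library and 0 with 20% added; in the other settings it was 2 or 3, and the higher count was 0 in every setting run. For the other mitosis lists, with 7 lower and 1 higher, the higher count was 2 at an adjusted p under 0.10 and 2 with adjustment over genes at or above the median mean value, and both counts were 0 with 10% added. With the columns rescaled to the same total, the log2 fold changes of Bub3 and Plk1 turned to 0.0061 and 0.0079. The median log2 fold change of the 36 genes lay between -0.11 and -0.06 over its settings, pseudocounts of 1 and 10 included. Leaving out members that overlap another gene was chosen after the data were seen. No paired analysis was possible because the table holds 1 value per genotype, and for the same reason no library could be left out in turn. The depth of each library is not known from the table, so counting error could not be separated from the spread between libraries.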

Other observations

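The annotation deposited with the table assigns genes to terms of cell division. Of the 36 genes, 14 carry the term cell division, 13 midbody, 11 kinetochore and 10 mitotic cytokinesis. Among all 295 genes annotated to cell division, 15 were called lower and 6 higher, with a median log2 fold change of -0.04, and among 67 kinetochore genes 3 were called lower and 0 higher (0 higher also at an unadjusted DESeq2 p under 0.05), with a median of -0.07. Of 97 spindle genes 5 were called lower and 7 higher (median -0.03), and of 134 midbody genes 7 lower and 5 higher (median -0.02). Over all genes tested 4.3% were called lower and 3.48% higher. The share called lower was 5.08% for cell division, 4.48% for kinetochore, 5.15% for spindle and 5.22% for midbody. For chromosome segregation 1 of 68 genes was called lower (1.47%) and 0 higher, with a median of -0.07. The term chromosome, centromeric region, had 1 of 50 called lower (2%) and 0 higher, with a median of -0.07. Without a threshold 64.7% and 68% of their genes had a lower value, against 49.3% of all genes. With an unadjusted DESeq2 p under 0.05, 10 of the 68 and 7 of the 50 were lower. In each term 1 gene was higher at that level, where 7.87% of all genes were lower and 6.74% higher. In both of these terms 0 genes outside the 36 were called. None of the 3 kinetochore genes is among the 36: they are Clasp1, Cbx5, which encodes the heterochromatin protein HP1 alpha (3037 to 2647, log2 fold change -0.20, DESeq2 adjusted p 0.0266), and the nuclear export receptor gene Xpo1 (3631 to 3101, -0.23, DESeq2 adjusted p 6.37e-04) in the authors' deposited table. Of 32 genes annotated to mitotic cytokinesis 5 were called lower (15.6%) and 1 higher, none of them among the 36. In the authors' deposited table the lower genes are the ankyrin gene Ank3 (1555 to 1067, log2 fold change -0.54, DESeq2 adjusted p 1.93e-08), Rasa1, which encodes a Ras GTPase-activating protein (-0.25), the sorting nexin genes Snx18 (-0.22) and Snx9 (-0.18), and the spectrin gene Sptbn1 (-0.15). The higher gene is Zfp365 (1046 to 1595, 0.61, DESeq2 adjusted p 2.36e-12). The values were known when these terms and genes were picked.

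The neighbourhood of Pttg1 was also examined. Within 1 Mb on either side the table lists 8 genes, of which 0 were called by DESeq2 and 0 had an unadjusted p under 0.05. Their log2 fold changes lay between -0.49 and 0.63. Of all genes tested 7.78% were called in either direction, so 0 of 8 does not set this region apart. The nearest, Slu7, a splicing factor gene 6263 bases away, had 1016 in wild type and 1084 in knockout (log2 fold change 0.09) in the authors' deposited table. Pwwp2a had 351 and 346 and Ttc1 691 and 665 in the authors' deposited table. The other 5 neighbours had values under 100.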
